A study of Homo sapiens with 8 samples.

Results

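The comparison described here set PAX6 knockout (PAX6 KO) against wild-type (WT) islet-like cells, both carrying a control vector, and its members were the 5 libraries of those groups, 3 of PAX6 KO (replicates 1, 2 and 3) and 2 of WT (replicates 1 and 3), out of 21 libraries in all. They were chosen by their genotype and vector labels, and the 4 sequencing lanes of each library were added together. The cells derive from the established human embryonic stem line H1, were taken through an islet differentiation in culture, received a vector on day 11 and were harvested on day 18. Bulk RNA was amplified from full-length cDNA and sequenced. PAX6 KO cells carry a knockout of PAX6 in the H1 background, and WT cells carry no edited gene. Both groups received the vector that makes blue fluorescent protein alone (BFP), so neither group is free of virus or vector. The site of the edit in PAX6 and whether the PAX6 KO line is 1 clone were not given in the sources used here. ISL1 KO and PDX1 KO cells with the same control vector (3 libraries each) were used to ask which differences PAX6 KO did not share with a knockout of another islet transcription factor. They also entered the main fit, where they shared in the estimate of spread. The remaining groups carried an ISL1 vector and entered the fit of all 21 libraries, which served as an alternative and in the choice of the genes named, and their counts are given for CAT.

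PAX6 is a transcription factor with 2 DNA-binding domains, a paired domain and a homeodomain, and it is known for its roles in the eye, the brain and the endocrine pancreas. In islets it is expressed in all hormone-producing cells, where it helps to switch on glucagon, insulin and somatostatin and the genes that sense and secrete. In animals that lack it, ghrelin-producing epsilon cells are increased at the expense of other islet cells. Endocrine cells arise from progenitors that transiently make NEUROG3, leave the cell cycle and then mature.

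Levels are read counts scaled to library size (CPM) and by the trimmed mean of M values (TMM), given per library in replicate order, and log2 fold changes are fitted values of PAX6 KO minus WT with their standard error (±). CPM are not divided by gene length, so levels are compared between libraries and not between genes. Adjusted p-values come from edgeR's quasi-likelihood test with Benjamini-Hochberg adjustment over all 21229 genes tested, and calls needed a value under 0.05. The p-values rest on the spread between libraries within all 4 control-vector groups. ISL1 KO and PDX1 KO enter it, and WT gives 2 of the 11 libraries. The series calls the replicates biological, but what separates them is not stated further. In bulk RNA, fewer cells of a type and less RNA per cell cannot be told apart.

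The 3 PAX6 KO libraries held 51192319 to 57406945 counts and the 2 WT libraries 40959445 and 54335522. Within each control-vector group the lowest correlation between libraries was 0.981 or more. WT replicate 1 and PAX6 KO replicate 1 were read on lanes 5 to 8 and the others on lanes 1 to 4, and 2838 of the 2840 genes called higher and all 3037 called lower had the same direction in both lane sets. These genes were called from the same 5 libraries, so such agreement is largely set by the choice of genes. It cannot show whether the lanes had an effect. Chromogranin A (CHGA), a general endocrine marker, averaged 19170 CPM in PAX6 KO and 19570 in WT, so both groups carried the endocrine RNA that their label names. The cultures also held a liver-like signal, with 22 liver marker genes adding up to 28260 to 30900 CPM in WT and 9045 to 11840 in PAX6 KO.

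PAX6 RNA itself was still present in the knockout. PAX6 (ENSG00000007372, GRCh38 chr11:31784779-31818062, minus strand) had 145 and 236 CPM in WT and 141, 100 and 161 CPM in PAX6 KO. The PAX6 KO values overlapped the lower WT value, and the difference did not pass the test (−0.51 ± 0.24, adjusted p = 0.147). A count over the whole gene cannot show a short edit, so PAX6 RNA does not check the genotype label. PAX6 RNA was lower in the other knockouts than in WT, by −1.10 in ISL1 KO and −0.80 in PDX1 KO, and these comparisons share the 2 WT libraries with the main one.

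In PAX6 KO, 2840 genes were called higher (13.4% of those tested) and 3037 lower (14.3%), together 27.7%. Of the 15936 protein-coding genes tested, 32.3% were called, 2390 higher and 2759 lower. The count depends on how the spread is estimated. With only the 2 groups compared in the fit, 2446 genes were higher and 2457 lower. With all 21 libraries in 1 fit, 534 genes were higher and 942 lower, and 1473 of these were also called in the main fit in the same direction (6.94% of the genes tested, 2.51% higher and 4.43% lower). Without WT replicate 1 the counts were 1554 and 1897, and without WT replicate 3 they were 1461 and 1778. Scaling by library size alone moved the median of all genes from 0.012 to 0.235 and the higher share of the calls from 48.3% to 72.8% (4986 higher and 1867 lower), so changes of a whole list are read relative to that shift and lists whose direction turned are named as such. Of the 76 gene lists with at least 5 calls, 68 had over 1.5 times fewer calls with all 21 libraries, 31 without WT replicate 1 and 28 without WT replicate 3, so the list counts below are those of the main fit and alternatives are given where the leading direction turned or the text rests on them. Of all genes tested, 274 (1.29%) were called higher than in WT and also above both ISL1 KO and PDX1 KO, and 177 (0.834%) were lower than in WT and below both.

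**Figure D1:**
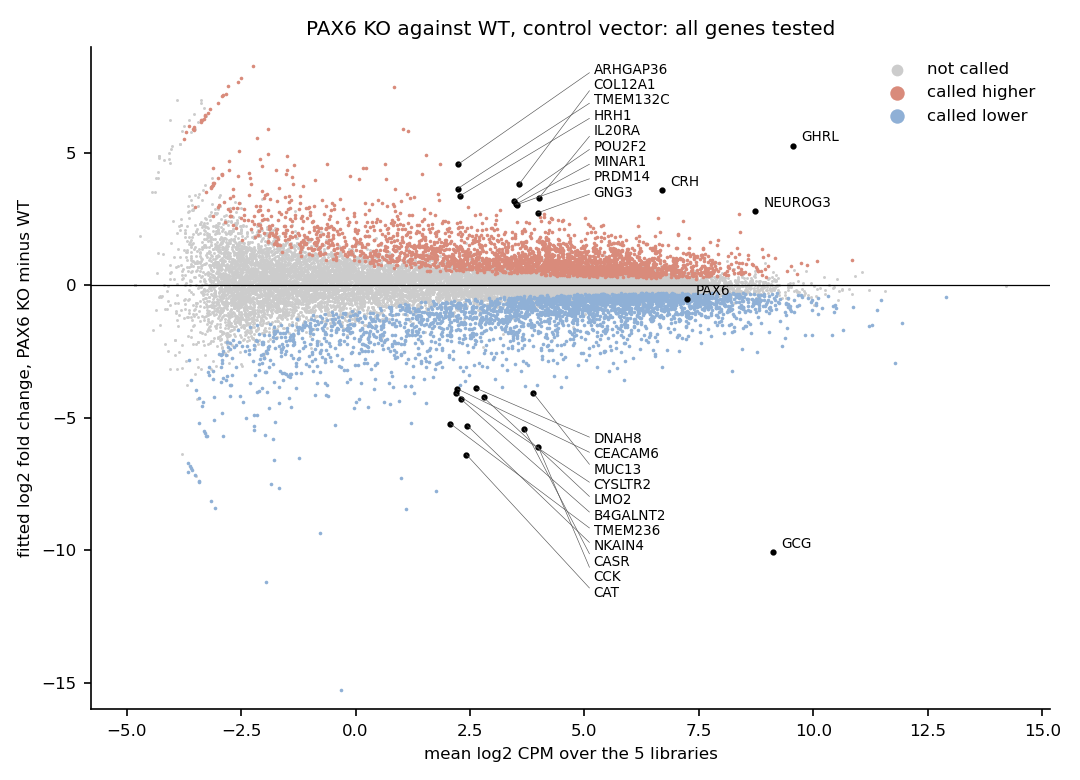
Fitted log2 fold change of PAX6 KO minus WT (vertical axis) against mean log2 CPM over the 5 libraries (horizontal axis), 1 point per gene tested, coloured by call; named points are PAX6 and the 12 largest rises and falls among genes with a mean log2 CPM of at least 2, called also with all 21 libraries, whose groups did not overlap. GHRL stands at 5.28 and GCG at −10.06, while PAX6 lies at −0.51.

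Fold changes followed the base composition of transcripts in every knockout. The median of protein-coding genes went from −0.168 in the bin of lowest GC content to 0.182 in the bin of highest, with 5 bins of equal size, and from −0.133 for the shortest transcripts to 0.111 for the longest. The same medians over GC bins ran from −0.215 to 0.24 in ISL1 KO and from −0.125 to 0.192 in PDX1 KO against the same WT libraries. Between PAX6 KO and the other knockouts they stayed between −0.061 and 0.042. The part of GC content in single results was not tested, but with a GC correction 2747 genes were higher and 3129 lower, and 5097 of the 5877 calls were kept in the same direction.

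**Figure D2:**
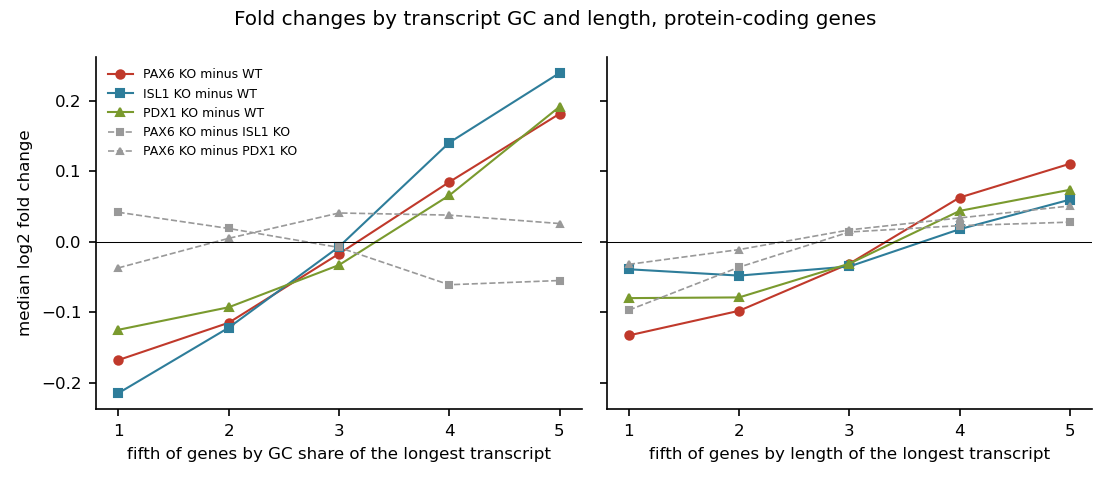
Median log2 fold change (vertical axis) of protein-coding genes in 5 equal bins by GC content (left) and by length (right) of the longest transcript, for 3 knockouts against WT and for PAX6 KO against the other knockouts. The lines against WT rise from the first to the last GC bin, in PAX6 KO from −0.168 to 0.182, and the lines between knockouts stay near 0.

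Among genes with a mean log2 CPM of at least 2 that were called also with all 21 libraries and whose groups did not overlap, the 12 largest rises were led by GHRL, the ghrelin gene (5.28 ± 0.29), and took in a hypothalamic hormone and a collagen. Genes of lower mean level, such as SV2C, are described with their lists. CRH encodes corticotropin-releasing hormone, the peptide that starts the pituitary stress response. It had 22.2 and 24.6 CPM in WT and 291, 214 and 343 CPM in PAX6 KO (3.60 ± 0.30, adjusted p = 1.13e-05). All 3 PAX6 KO libraries stood far above both WT libraries, while in ISL1 KO (1.08 to 1.31 CPM) and PDX1 KO (3.06 to 6.89 CPM) CRH stood below WT. COL12A1, a collagen gene of fibril surfaces, had 2.81 and 2.07 CPM in WT and 41.5, 34.3 and 27.6 CPM in PAX6 KO (3.81 ± 0.31, adjusted p = 1.07e-05). It stayed between 2.03 and 4.78 CPM in all 6 libraries of the other knockouts. ARHGAP36, an activator of Hedgehog signalling that binds protein kinase A, had 0.662 and 0.772 CPM in WT and 18.9, 9.86 and 22.4 CPM in PAX6 KO (4.57 ± 0.46). Others in this set were TMEM132C (3.65 ± 0.43), the histamine receptor gene HRH1 (3.37 ± 0.52), the cytokine receptor gene IL20RA (3.31 ± 0.19) and MINAR1 (3.05 ± 0.29). The rest were the G protein subunit gene GNG3 (2.74 ± 0.40) and the transcription factors POU2F2, PRDM14 and NEUROG3, described below. Of these 12 genes, IL20RA, POU2F2, MINAR1 and GNG3 also stood above WT by 1.41, 1.97, 1.68 and 2.25 in ISL1 KO and by 1.05, 2.86, 3.49 and 1.91 in PDX1 KO.

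By the same rule the 12 largest falls were led by GCG, the glucagon gene (−10.06 ± 0.60), and catalase, the enzyme that breaks down hydrogen peroxide. G6PC2, FFAR1, PYY and GIP, of lower mean level, fell by more than catalase and are described with their lists. CAT (GRCh38 chr11:34438925-34472062, plus strand) had 70.3 and 79.5 CPM in WT and 0.978, 0.723 and 0.983 CPM in PAX6 KO (−6.39 ± 0.15, adjusted p = 4.83e-10). No PAX6 KO library reached a level near WT, and CAT was higher in ISL1 KO (97.1, 111.7 and 113.6 CPM) and PDX1 KO (141, 161 and 150 CPM) than in WT. In the 3 libraries of PAX6 KO cells that received the ISL1 vector, CAT had 31, 40 and 67 counts, against 44 to 58 in PAX6 KO with the control vector and 2882 and 3501 in WT. CCK, the cholecystokinin gene of gut endocrine cells, had 275 and 134 CPM in WT, 2.80, 3.34 and 2.83 CPM in PAX6 KO (−6.09 ± 0.29) and 243 to 254 CPM in ISL1 KO. CASR, the calcium-sensing receptor gene, had 140 and 110 CPM in WT and 3.52, 1.74 and 3.54 CPM in PAX6 KO (−5.42 ± 0.33), with a like level in PDX1 KO (2.25 to 4.11 CPM).

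Most of the other large falls were seen in all 3 knockouts. NKAIN4, a partner of the sodium pump (−5.30 ± 0.31), TMEM236 (−5.22 ± 0.48), the glycosyltransferase gene B4GALNT2 (−4.31 ± 0.51), the leukotriene receptor gene CYSLTR2 (−4.08 ± 0.44), the mucin gene MUC13 (−4.08 ± 0.41), the cell adhesion gene CEACAM6 (−3.91 ± 0.45) and the dynein gene DNAH8 (−3.89 ± 0.29) were lower than WT in ISL1 KO by −3.88 to −6.95 and in PDX1 KO by −1.85 to −5.88. Those values share the WT libraries, so they are not independent of each other. Of the 12 falls, CAT and CCK were lower in PAX6 KO than in both other knockouts, and so was NKAIN4 (−1.04 against ISL1 KO with adjusted p = 0.0327, and −2.70 against PDX1 KO).

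Transcription factors were counted in 28 family lists with 542 genes tested, of which 100 were higher and 101 lower (37.1% called in either direction, against 27.7% of all genes and 32.3% of protein-coding genes), with a median of 0.01. With library size as scaling, 144 were higher and 72 lower. SOX factors, which hold progenitors in an immature state or drive their differentiation, had 8 of 17 higher and 1 lower (median 0.69). SOX2, a factor of stem cells, foregut and neural progenitors, had 4.25 and 7.37 CPM in WT and 38.6, 28.3 and 46.5 CPM in PAX6 KO (2.71 ± 0.29). Its PDX1 KO level was alike (30.2 to 45.7 CPM) and its ISL1 KO level lower (11.3 to 14.8 CPM). SOX21, its frequent counterpart in neural progenitors, rose by 3.23 ± 0.41, and SOX4, which acts in endocrine differentiation, rose by 0.80 ± 0.12. SOX18, a factor of vessel formation, was the member that fell (−1.75 ± 0.29).

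The list of RFX, INSM, MYT and other zinc finger factors of endocrine and neural cells had 11 of 25 higher and 3 lower. MYT1L, a factor that holds neuronal identity, rose by 2.75 ± 0.36, and its relative ST18 by 1.47 ± 0.22. ST18 was above both other knockouts too (1.53 and 0.92). The HOX, PDX1 and CDX list had 6 of 23 higher and none lower, among them HOXC4 (1.41 ± 0.34), and 2 without WT replicate 3, where HOXC4 was not called (1.03, adjusted p = 0.103). POU homeobox genes had 4 of 10 higher and none lower, with POU2F2, known from lymphocytes and neurons, at 1.93 and 4.22 CPM in WT and 29.8, 19.4 and 32.6 CPM in PAX6 KO (3.17 ± 0.36). Single factors of other families that rose were DLX5 (2.64 ± 0.61, 2.53 with adjusted p = 0.0606 without WT replicate 3), DACH2 (2.37 ± 0.27) and NKX2-2, an islet homeobox factor (1.88 ± 0.29).

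The PRDM and BCL list had 7 of 26 higher, 4 lower and 4 above both other knockouts. PRDM14, a zinc finger factor of pluripotent and germ cells, had 2.93 and 3.61 CPM in WT and 32.5, 20.9 and 27.6 CPM in PAX6 KO (3.05 ± 0.36, adjusted p = 0.000114). It stayed at 1.72 to 4.05 CPM in the other knockouts. Among the other pluripotency and early lineage genes, SOX2 was also higher and CXCR4 lower (−1.86 ± 0.24), with 2 of 15 called in each direction. MECOM, BCL11A and ZBTB16, known from blood stem cells and neural development, were the other 3 above both knockouts, and BCL11A lost its call against WT without WT replicate 3 (0.45, adjusted p = 0.169).

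**Figure D3:**
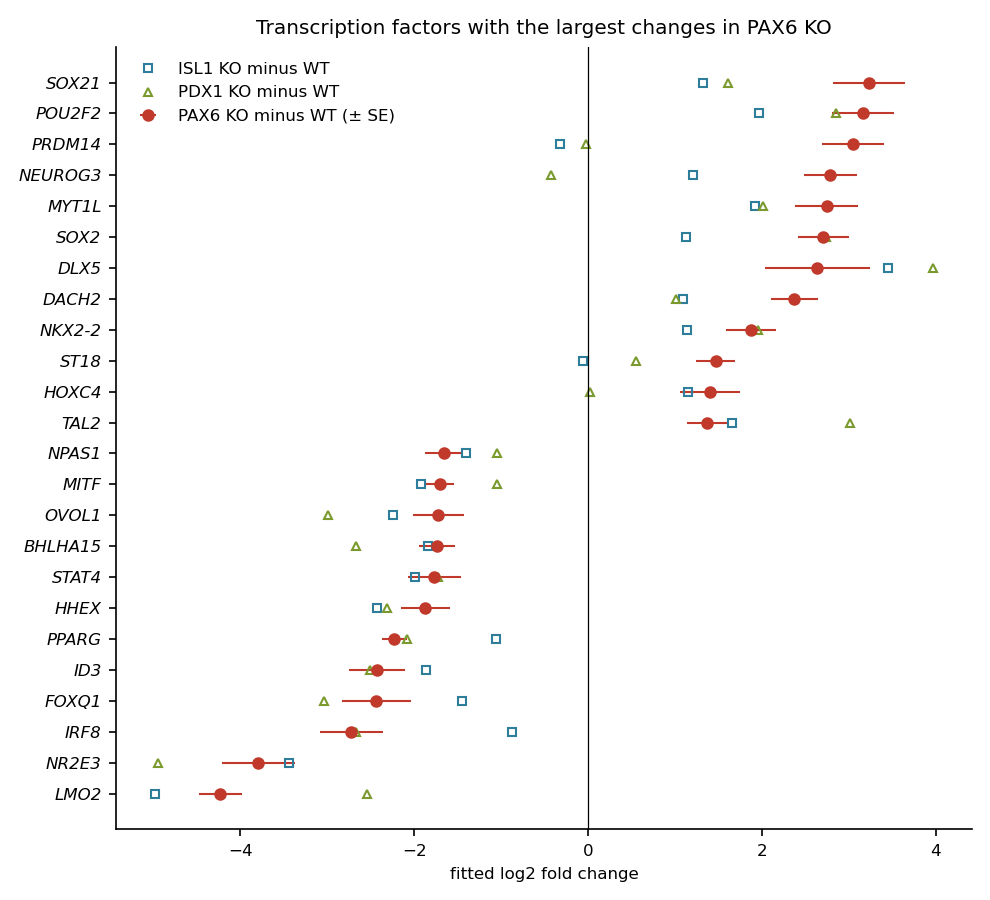
Fitted log2 fold change (horizontal axis) of the 12 transcription factor genes with the largest rises and the 12 with the largest falls (mean log2 CPM of at least 1, called also with all 21 libraries, groups not overlapping) in PAX6 KO against WT (circles, ± SE), with ISL1 KO (squares) and PDX1 KO (triangles) against the same WT libraries. PRDM14 and NEUROG3 stand apart from both other knockouts, while LMO2, NR2E3, HHEX and ID3 are low in all 3.

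Other families had more members lower than higher. The AP-1, ATF, CREB and CEBP list had 1 of 35 higher and 13 lower (median −0.30), with CEBPB, a factor of liver and inflammation (−1.11 ± 0.13), and FOSL1 (−2.54) among them. Immediate early genes, whose RNA appears within minutes of a stimulus, had 0 of 18 higher and 8 lower (median −0.73). KLF2 (−1.86 ± 0.33), NR4A2 (−1.54 ± 0.28) and JUNB (−1.11 ± 0.26, and −1.05 with adjusted p = 0.0539 without WT replicate 3) were among them. With 1 library left out the lower count ran from 3 to 12, and with all 21 libraries in the fit 1 of the 8 remained. Nuclear receptors had 5 of 41 higher and 12 lower. PPARG, the fat cell regulator, had 44.2 and 42.2 CPM in WT and 9.93, 8.80 and 8.98 CPM in PAX6 KO (−2.23 ± 0.15), and NR2E3, a photoreceptor factor, fell by 3.80 ± 0.42. The IRF, STAT and NF-kB list had 4 of 26 higher and 8 lower, with IRF8 (−2.72 ± 0.36) and STAT4 (−1.77 ± 0.30). Its median turned from −0.14 to 0.09 with library size as scaling. LMO2, a bridging protein of blood and vessel transcription complexes, had 35.6 and 46.2 CPM in WT and 1.79, 1.73 and 3.02 CPM in PAX6 KO (−4.23 ± 0.25). HHEX, the factor of delta cells and liver (−1.87 ± 0.28), FOXQ1 (−2.44 ± 0.40), OVOL1, an epithelial factor (−1.72 ± 0.29), MITF, a pigment cell factor (−1.70 ± 0.16), NPAS1 (−1.66) and BHLHA15, the secretory cell factor also called MIST1 (−1.74 ± 0.21), fell as well and also stood below WT in ISL1 KO and PDX1 KO.

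Among the cell identity lists, those of endocrine progenitors and of enterochromaffin-like cells had most of their members higher. Of 21 endocrine progenitor markers tested, 13 were higher and 1 lower (median 0.79), and 5 of the 13 stood above both other knockouts. Against ISL1 KO 8 of the 21 were higher and 1 lower, and against PDX1 KO 9 and 6. Their summed level overlapped between WT (21340 to 26240 CPM) and PAX6 KO (18670 to 30060 CPM) and was highest in PDX1 KO (45550 to 49920 CPM). Without CHGA, the top marker, these sums were 3621 to 4814, 4808 to 6859 and 6930 to 7920 CPM. NEUROG3 (GRCh38 chr10:69571698-69573238, minus strand) had 108.6 and 164 CPM in WT and 1014, 686 and 1121 CPM in PAX6 KO (2.79 ± 0.30, adjusted p = 6.36e-05). ISL1 KO lay between (283 to 361 CPM) and PDX1 KO at 66.5 to 122.2 CPM. NHLH1, a factor that NEUROG3 switches on (1.83 ± 0.43, and 1.73 with adjusted p = 0.072 without WT replicate 1), PAX4, the paired factor of early beta cells (1.06 ± 0.21), and DLL1, a Notch ligand (0.91 ± 0.15), were higher than in WT and in both other knockouts. HES6 rose from 75.2 and 98.5 CPM to 206, 164 and 240 CPM (1.23 ± 0.19), and PDX1 KO was alike (177 to 210 CPM). With all 21 libraries in the fit, 8 of the 13 kept the call, and without WT replicate 1 the list had 8 higher and 2 lower.

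Enterochromaffin-like markers, genes of serotonin-making cells that this differentiation is known to yield, had 10 of 14 higher and 1 lower (median 0.95). TPH1, which makes serotonin, had 29.9 and 57.4 CPM in WT and 148, 94.5 and 144 CPM in PAX6 KO (1.57 ± 0.29). SLC18A1, a vesicular amine carrier, rose by 1.87 ± 0.29, ADRA2A by 1.13 ± 0.19 and LMX1A by 0.88 ± 0.15, while MAOB fell by 1.39 ± 0.22. None of the 14 was above ISL1 KO or PDX1 KO, and 5 were below ISL1 KO and 8 below PDX1 KO. In these 2 comparisons 9.0% and 17.8% of all genes were called, 5.18% and 9.02% of all genes higher in PAX6 KO and 3.82% and 8.76% lower. With all 21 libraries in the fit, 3 of the 10 kept the call.

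By number of calls, mature islet markers leaned the other way. The beta cell list had 4 of 28 higher and 14 lower, the alpha cell list 3 of 22 and 9, the delta cell list 1 of 13 and 6, and the epsilon and gamma cell list 5 of 15 and 7. The summed level of the epsilon and gamma list nevertheless rose, from 1518 to 1534 CPM in WT to 3735 to 5190 CPM in PAX6 KO. GHRL averaged 3252 CPM of that sum. The beta sum fell from 15090 to 17380 CPM in WT to 3507 to 4530 CPM in PAX6 KO. The alpha sum fell from 43030 to 57530 CPM to 4169 to 6295 CPM, and the delta sum from 1095 to 1279 CPM to 522 to 718 CPM. These sums were below WT in the other knockouts too. In ISL1 KO the beta, alpha and delta sums were 6606 to 7451, 4801 to 5857 and 380 to 424 CPM. In PDX1 KO they were 3440 to 3618, 21210 to 26770 and 495 to 547 CPM. G6PC2, the islet glucose-6-phosphatase that sets the glucose threshold, had 82.0 and 95.0 CPM in WT and no count in any PAX6 KO library. Against 3 counts over the PAX6 KO group it was at least 5100-fold lower, and in ISL1 KO it had 0.952 to 1.41 CPM. SLC30A8, the zinc transporter of insulin granules, had 352 and 410 CPM in WT and 57.0, 32.2 and 44.5 CPM in PAX6 KO (−3.10 ± 0.21). IAPP, the amyloid peptide released with insulin, had 7.93 and 7.59 CPM in WT and 0.245, 0.263 and 0.457 CPM in PAX6 KO (−4.58 ± 0.35). On the epsilon side, ACSL1, a long-chain fatty acid CoA ligase, had 107 and 115.3 CPM in WT and 832, 521 and 774 CPM in PAX6 KO (2.68 ± 0.20), and it stayed at 67.7 to 123.5 CPM in the other knockouts. SERTM1, another marker of the list, fell by 3.15 ± 0.31.

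Among markers of cells that an islet differentiation can hold beside endocrine cells, those of liver and gut had most of their members lower. Of 22 liver markers 20 were lower and none higher (median −1.58), and in the GC-corrected fit, with library size as scaling and without WT replicate 1 the count was 20 again. VTN, a plasma adhesion protein, had 481 and 581 CPM in WT and 161, 180 and 230 CPM in PAX6 KO (−1.48 ± 0.14), and AMBP, a plasma protein precursor, had 1586 and 1856 CPM and 810, 792 and 854 CPM (−1.07 ± 0.11). The summed liver markers were also low in ISL1 KO (10420 to 14540 CPM) and PDX1 KO (7672 to 8184 CPM). Intestine and stomach markers had 10 of 18 lower and 2 higher, and they summed to 518 to 787 CPM in PAX6 KO against 1441 to 1835 CPM in WT. The sum was 444 to 498 CPM in PDX1 KO and 1616 to 2106 CPM in ISL1 KO, where LYZ averaged 1230 CPM. Their falls were led by gut hormones, GIP from 28.9 and 48.7 CPM to 0.282, 0.214 and 0.254 CPM (−7.27 ± 0.27), PYY from 91.5 and 76.0 CPM to 0.357, 0.230 and 0.559 CPM (−7.77 ± 0.38) and GAST from 340 and 192 CPM to 24.4, 25 and 17.1 CPM (−3.58 ± 0.31). Being hormone genes, they do not speak for gut cells other than endocrine ones. GIP had 14 to 25 counts in PDX1 KO and 769 to 851 in ISL1 KO, against 1438 and 1765 in WT. PYY had 24 to 76 counts in ISL1 KO and 804 to 1330 in PDX1 KO, against 4558 and 2753 in WT. Neuron markers had 9 of 25 higher and 1 lower, with summed levels that overlapped (1367 to 1735 CPM in WT, 1606 to 2538 CPM in PAX6 KO). Endothelial and blood markers had 5 of 10 lower and 2 higher, EGFL7 (−1.74 ± 0.12) and the VEGF receptor gene KDR (−3.07 ± 0.48) among the lower. Mesenchyme markers had 2 of 20 lower and none higher, duct and progenitor markers 5 higher and 6 lower of 21 (6 and 5 with library size as scaling), acinar markers 1 and 2 of 14, and eye and lens markers 1 and 1 of 11.

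**Figure D4:**
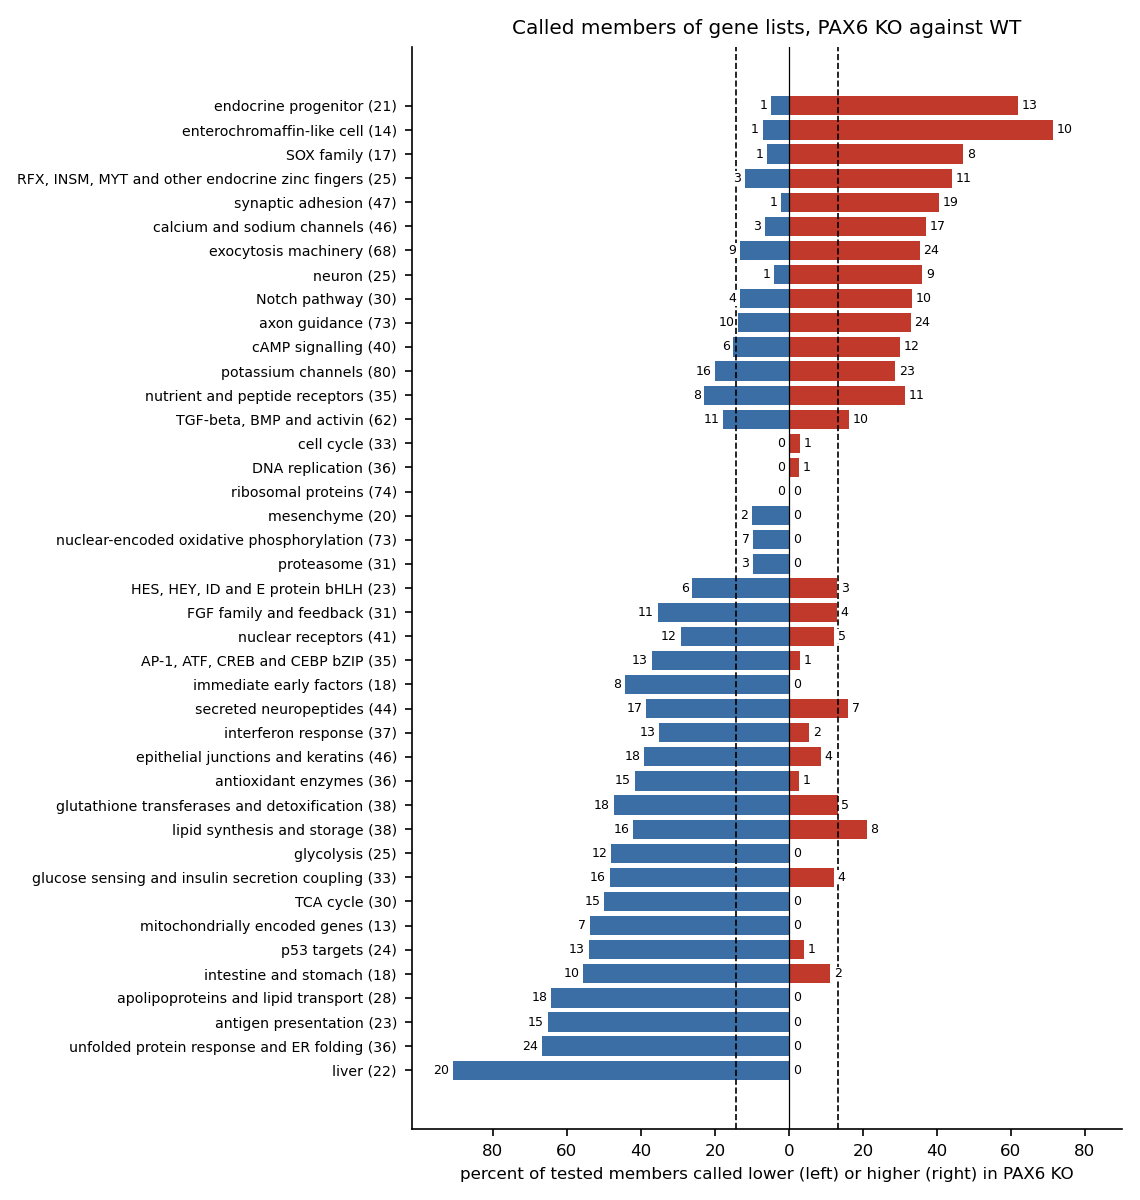
Percent of tested members called lower (left, blue) or higher (right, red) in PAX6 KO against WT for 41 gene lists, with the number tested in parentheses, the number called at each bar and dashed lines at the shares of all genes (14.3% lower, 13.4% higher). Protein-coding genes alone had larger shares, with 2759 of 15936 lower and 2390 higher. Endocrine progenitor and synaptic adhesion lists reach right, and liver, endoplasmic reticulum folding and antigen presentation lists reach left.

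The TGF-beta, BMP and activin list had 10 of 62 genes higher and 11 lower (15 and 8 with library size as scaling, and 7 and 6 without WT replicate 1). Within it, BMP2, a ligand of the family, had 184 and 222 CPM in WT and 36.5, 45.0 and 34.1 CPM in PAX6 KO (−2.40 ± 0.24). The ID genes, inhibitors of basic helix-loop-helix factors that BMP signals induce, fell too. ID3 had 348 and 298 CPM in WT and 29.6, 77.2 and 73.3 CPM in PAX6 KO (−2.43 ± 0.32), ID1 fell by 2.26 ± 0.30 and ID2 by 1.44 ± 0.20. ID1, ID2, ID3 and BMP2 were lower in ISL1 KO and PDX1 KO by −1.08 to −2.76, and none of the 4 differed from either at an adjusted p under 0.05. ACVR1C, the nodal and activin receptor ALK7, fell from 293 and 480 CPM to 81.7, 49.9 and 74.3 CPM (−2.49 ± 0.24), and INHBB, an activin subunit, rose by 1.85 ± 0.27.

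The FGF list had 4 of 31 higher and 11 lower (5 and 6 with library size as scaling), with FGF19, a gut and liver hormone (−2.45 ± 0.28), and its co-receptor gene KLB (−1.60 ± 0.18). The EGF and neuregulin list had 0 of 15 higher and 6 lower. AREG, an EGF receptor ligand, had 107 and 97.2 CPM in WT and 10.1, 18.1 and 10.3 CPM in PAX6 KO (−2.99 ± 0.41), and EGFR and the feedback inhibitor gene ERRFI1 fell by 1.39 ± 0.30 and 1.02 ± 0.13. None of the 6 was called with all 21 libraries in the fit.

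Notch pathway genes had 10 of 30 higher and 4 lower, with NUMBL (1.20 ± 0.20) higher and the target HEYL (−2.48 ± 0.37) lower. With all 21 libraries in the fit 1 was higher and 2 lower, and without WT replicate 3 the counts were 3 and 3. Hedgehog genes had 4 of 14 higher (among them BOC, 1.08 ± 0.23) and none lower, and WNT genes 7 of 59 higher and 5 lower (6 and 9 without PAX6 KO replicate 2, and 3 and 4 without WT replicate 3). Axon guidance genes had 24 of 73 higher and 10 lower, EPHA5 (2.56 ± 0.31), SEMA6B (2.11 ± 0.27), RGMA (1.77 ± 0.23) and SEMA6C (1.75 ± 0.22) among the higher. NTNG1, a netrin of synapses, went from 20.8 and 21.3 CPM to 2.73, 3.22 and 1.95 CPM (−3.0 ± 0.21) and was below both other knockouts.

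cAMP signalling, which couples gut hormones to secretion, had 12 of 40 genes higher and 6 lower. GNAS, the stimulatory G protein subunit that links receptors to cAMP, had 2332 and 3671 CPM in WT and 821, 799 and 832 CPM in PAX6 KO (−1.88 ± 0.17). It was also lower in ISL1 KO (−1.70) and PDX1 KO (−1.12). PDE2A, a phosphodiesterase that breaks cAMP down, rose from 23.4 and 24.8 CPM to 101, 65.7 and 87.9 CPM (1.82 ± 0.16), and PRKAR1B, a regulatory subunit of protein kinase A, rose by 0.97 ± 0.15. Among nutrient and peptide receptors 11 of 35 were higher and 8 lower (3 and 6 with all 21 libraries, and 5 and 8 without WT replicate 1). FFAR1, the receptor through which fatty acids raise insulin secretion, had 70.9 and 78.8 CPM in WT and 0.0941, 0.427 and 0.102 CPM in PAX6 KO (−8.45 ± 0.39), against 13.2 to 16.8 CPM in ISL1 KO and 6.75 to 8.75 CPM in PDX1 KO. The lysophosphatidic acid receptor gene LPAR1 (155 and 181 CPM against 20.1, 26.6 and 19.2 CPM, −2.93 ± 0.16) and the prostaglandin receptor gene PTGER3 (−3.84 ± 0.26) were likewise below both other knockouts. FFAR4, another receptor for long-chain fatty acids, rose from 1.91 and 3.92 CPM to 14.1, 9.26 and 14 CPM (2.11 ± 0.42) and was above both other knockouts. GPR119, a lipid receptor, fell by 2.74 ± 0.26 and was above ISL1 KO by 1.67.

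**Figure D5:**
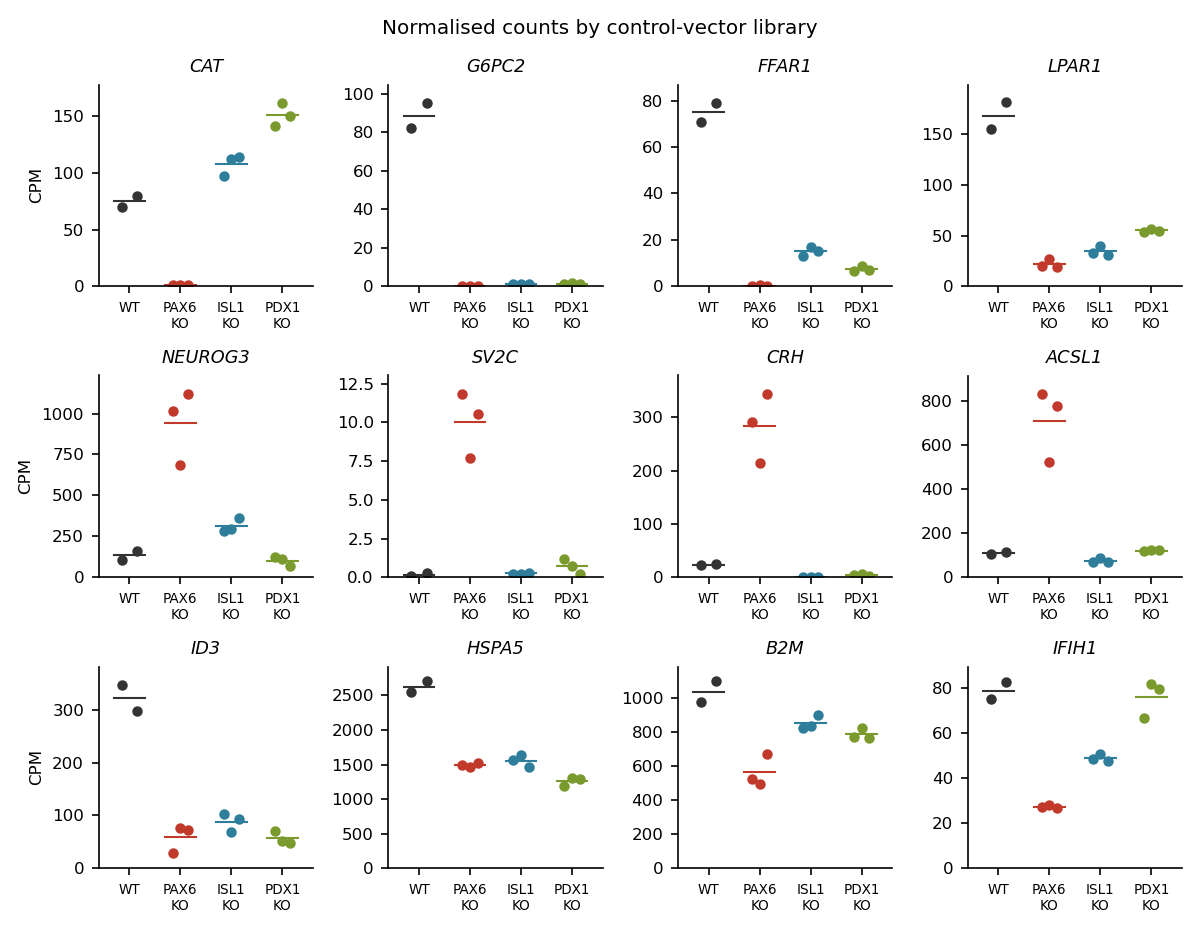
CPM of 12 genes (vertical axes from 0) in each control-vector library of WT, PAX6 KO, ISL1 KO and PDX1 KO, with 1 point per library and a line at the group mean. CAT is near 0 in PAX6 KO only, NEUROG3, SV2C, CRH and ACSL1 are highest in PAX6 KO, ID3 and HSPA5 are low in all 3 knockouts, and B2M and IFIH1 are lowest in PAX6 KO.

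Calcium and sodium channel genes had 17 of 46 higher and 3 lower (median 0.52), with the sodium channel genes SCN3A (6.34 and 7.50 CPM against 43.6, 27.6 and 38.4 CPM, 2.40 ± 0.30) and NALCN (2.37 ± 0.30) and the calcium channel subunit gene CACNB3 (1.44 ± 0.17). Another calcium channel subunit gene, CACNA2D3, fell from 25.8 and 37.2 CPM to 4.82, 3.90 and 4.90 CPM (−2.80 ± 0.22) and was below both other knockouts. Potassium channel genes had 23 of 80 higher and 16 lower. Among the lower, KCNK16, an islet leak channel also called TALK-1, fell by 1.10 ± 0.12. Glutamate, GABA and glycine receptor genes had 11 of 41 higher and 5 lower, with GRM7 from 0.622 and 0.303 CPM to 10.01, 8.24 and 8.06 CPM (4.20 ± 0.56), above both other knockouts, and GABBR2 (2.24 ± 0.31). Without WT replicate 3 the calcium and sodium channel list had 8 higher and 3 lower, and with all 21 libraries 5 and 2.

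Synaptic adhesion genes had 19 of 47 higher and 1 lower (median 0.62), among them NXPH4 (1.58 ± 0.17), TENM1 (1.98 ± 0.26), NLGN1 (1.26 ± 0.18), SLITRK1 (1.78 ± 0.27) and PTPRS (1.44 ± 0.23). All 5 also stood above WT in ISL1 KO and PDX1 KO, by 0.80 to 2.72. Genes of the exocytosis machinery had 24 of 68 higher and 9 lower. SV2C, a synaptic vesicle protein, had 0.100 and 0.248 CPM in WT and 11.8, 7.68 and 10.6 CPM in PAX6 KO (5.89 ± 0.62), and it reached at most 1.17 CPM in the other knockouts. Its relative SV2B rose by 2.46 ± 0.26, BAIAP3, a docking factor of dense-core vesicles, by 2.56 ± 0.22 and SYT13, an atypical synaptotagmin, by 1.41 ± 0.15. RAB27B, a vesicle-tethering GTPase, fell by 2.37 ± 0.31. Prohormone processing genes had 2 of 23 higher and 7 lower (5 and 4 with library size as scaling). PCSK1, a prohormone convertase of beta cells, rose by 1.41 ± 0.22, and SCG5, the chaperone of the convertase of alpha cells, fell from 1038 and 1484 CPM to 233, 151 and 280 CPM (−2.51 ± 0.24). Synaptic adhesion calls numbered 11 higher and 1 lower without WT replicate 3 and 5 and 0 with all 21 libraries, and exocytosis calls 14 and 6 without WT replicate 1 and 6 and 1 with all 21 libraries.

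Genes of protein folding in the endoplasmic reticulum were lower as a group. Of 36 members tested 24 were lower and none higher (median −0.60). With the GC correction the count was again 24, with library size as scaling 18 were lower and 1 higher, and with all 21 libraries 10 were lower. HSPA5, the chaperone BiP, had 2548 and 2702 CPM in WT and 1487, 1458 and 1520 CPM in PAX6 KO (−0.82 ± 0.10, adjusted p = 0.00011). HSP90B1, the chaperone GRP94, had 2033 and 2073 CPM in WT and 1143, 1198 and 1066 CPM in PAX6 KO (−0.85 ± 0.10). ERO1B, the oxidase that helps proinsulin to fold, had 1023 and 1328 CPM in WT and 153.5, 92.1 and 124.9 CPM in PAX6 KO (−3.25 ± 0.22). XBP1, the transcription factor that induces many of these genes, had 659 and 852 CPM in WT and 429, 384 and 469 CPM in PAX6 KO (−0.82 ± 0.13). The PAX6 KO and WT libraries did not overlap for any of the 4, as they did not for 52.6% of all genes tested. DNAJB11 (−0.94 ± 0.10), SDF2L1 (−0.98 ± 0.11) and PDIA6 (−0.99 ± 0.11), co-chaperones and a disulfide isomerase, fell by like amounts. HSPA5, HSP90B1, ERO1B and XBP1 were also lower than WT in ISL1 KO (−0.49 to −3.28) and PDX1 KO (−0.82 to −2.98), and 0 of the 24 were below both other knockouts. The summed liver markers, genes of another secretory cell, moved with this list, and their part in it was not tested.

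Many genes of this group carry an endoplasmic reticulum stress element near their start, the letters CCAAT, a spacer of 9 bases and CCACG, to which ATF6 and XBP1 are known to bind with NF-Y. Searched as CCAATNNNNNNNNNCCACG on both strands of the 250 bases before each gene start, in RefSeq sequences of build GRCh38.p14, it was found in 22 of 27305 promoters (0.0806%). Among the 12753 tested protein-coding genes with a promoter in that table, 15 held it (0.118%). Of these, 12 were called lower and none higher, and the other 3 (CALR, GLRA2 and ZNF17) were not called. Of all 12753 genes, 2178 were called lower and 1874 higher. The 12 include SERP1 with EIF2A and ALG12 with CRELD2, and each of these pairs shares 1 element. In the folding list 7 of 34 promoters held it. A match is a description of letters, not a shown binding site. The elements of 8 genes are printed because these genes fell together, with the CCAAT and CCACG parts in capitals and read 5′ to 3′ in the direction of the element.
HSPA5 (chr9:125241391-125241409): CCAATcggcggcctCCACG
HSP90B1, far element (chr12:103930216-103930234): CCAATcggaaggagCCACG
HSP90B1, near element (chr12:103930321-103930339): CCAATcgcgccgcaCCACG
XBP1 (chr22:28800603-28800621): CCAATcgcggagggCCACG
ERO1B (chr1:236282183-236282201): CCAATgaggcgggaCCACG
CANX (chr5:179698778-179698796): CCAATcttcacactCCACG
SERP1 and EIF2A, shared (chr3:150546710-150546728): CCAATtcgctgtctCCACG
FICD (chr12:108515123-108515141): CCAATgggagtggcCCACG
SERP1 and EIF2A are neighbours read in opposite directions, and 1 element lies between their starts, as do ALG12 and CRELD2 around another. CANX, a membrane chaperone, fell by 0.61 ± 0.13, SERP1, a translocon protein, by 0.73 ± 0.11, and FICD, an enzyme that inactivates BiP, by 0.71 ± 0.16. Without WT replicate 3 FICD (−0.52) and EIF2A (−0.41) were not called, and ALG12 and CRELD2 were not called without either WT library (−0.31 to −0.39). ALG12 was also not called without PAX6 KO replicate 1 (−0.25) or 2 (−0.3), nor CRELD2 without PAX6 KO replicate 1 (−0.32).

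The promoters of HSPA5 and ERO1B, genes with the same element and falls of unequal size, are shown whole. They are the 250 bases before the gene start on the gene's strand, with the element in capitals, which in ERO1B lies on the opposite strand and so reads in reverse complement. In HSPA5 the element starts 66 bases before the gene start, and in ERO1B 243 bases before it.
HSPA5 (GRCh38.p14 chr9:125241344-125241593, minus strand): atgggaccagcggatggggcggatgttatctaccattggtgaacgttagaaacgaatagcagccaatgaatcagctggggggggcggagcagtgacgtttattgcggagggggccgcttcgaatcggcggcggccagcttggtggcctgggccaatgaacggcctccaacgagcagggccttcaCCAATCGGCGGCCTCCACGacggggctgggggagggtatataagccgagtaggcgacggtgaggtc
ERO1B (GRCh38.p14 chr1:236281959-236282208, minus strand): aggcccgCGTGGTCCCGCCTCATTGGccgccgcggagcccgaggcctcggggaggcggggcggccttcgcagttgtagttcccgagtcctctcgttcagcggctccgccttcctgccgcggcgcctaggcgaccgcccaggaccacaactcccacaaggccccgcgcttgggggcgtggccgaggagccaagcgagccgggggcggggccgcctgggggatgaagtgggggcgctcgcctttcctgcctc

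Antioxidant enzymes had 1 of 36 higher and 15 lower (0 and 3 with all 21 libraries, 3 and 9 with library size as scaling, and 0 and 8 without WT replicate 3). Beside CAT, 2 others were below both other knockouts, the glutathione synthesis subunit gene GCLM (175 and 266 CPM against 114, 94.1 and 101 CPM, −1.10 ± 0.18) and the glutathione reductase gene GSR (−0.46 ± 0.10, and −0.36 with adjusted p = 0.0894 without WT replicate 3). NQO1, a quinone reductase, went from 141 and 147 CPM to 31.0, 36.6 and 28.4 CPM (−2.17 ± 0.17) and was low in all 3 knockouts, as was NFE2L2, the factor that induces it (−0.85 ± 0.14). Glycolysis genes had 0 of 25 higher and 12 lower. LDHA, lactate dehydrogenase, had 602 and 791 CPM in WT and 197, 252 and 237 CPM in PAX6 KO (−1.61 ± 0.15), and PDK3, a brake on pyruvate entry to mitochondria, fell by 2.15 ± 0.14 and was below both other knockouts. TCA cycle genes had 0 of 30 higher and 15 lower, with the malic enzyme gene ME2 (−1.51 ± 0.13) and DLAT of the pyruvate dehydrogenase complex (−1.25 ± 0.13). With library size as scaling 5 of 30 were lower and 3 higher. Mitochondrially encoded genes had 7 of 13 lower, and nuclear genes of oxidative phosphorylation 7 of 73 lower, a smaller share than the 14.3% of all genes called lower, and a count that turned to 2 higher and none lower with library size as scaling. In the 21-library fit no gene of either mitochondrial list was called.

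Apolipoproteins and lipid transport genes had 0 of 28 higher and 18 lower (median −1.18), with lipoprotein lipase (LPL, 192 and 180 CPM against 13.8, 30.0 and 15.1 CPM, −3.24 ± 0.33) and APOC3 (−1.29 ± 0.16), an inhibitor of it. Several of these genes are also made in liver cells, and the liver markers moved with them, and that part was not tested. Lipid synthesis and storage genes had 8 of 38 higher and 16 lower. Besides the rise of ACSL1, its relative ACSL5 fell from 8.03 and 9.74 CPM to 0.282, 0.756 and 0.796 CPM (−3.85 ± 0.45), and PLIN2, a lipid droplet coat, fell by 1.22 ± 0.13. Cholesterol synthesis genes had 1 of 24 higher and 7 lower against WT, and their median turned from −0.19 to 0.03 with library size as scaling. Detoxification genes had 5 of 38 higher and 18 lower, with CYP1B1 (2.17) the opposite of MGST1 (−1.89) and AKR1C2 and AKR1C3 (−2.07 and −2.45).

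Antigen presentation was among the lists with the largest share of falls, 15 of 23 lower and none higher (median −1.0). The class I heavy chain genes HLA-B and HLA-C fell by 1.90 ± 0.20 and 1.5 ± 0.18. These class I genes resemble each other, so reads can be split between them. B2M, the shared light chain (975 and 1099 CPM against 524, 498 and 671 CPM, −0.88 ± 0.13), HLA-E (−0.97 ± 0.10) and the loading factor gene TAPBP (−0.89 ± 0.14) were, in addition, below both other knockouts. Interferon response genes had 2 of 37 higher and 13 lower, and 6 of the 13 were below both other knockouts. IFIH1, the sensor MDA5 of double-stranded RNA, had 74.9 and 82.5 CPM in WT and 27.1, 27.9 and 26.8 CPM in PAX6 KO (−1.53 ± 0.11, adjusted p = 4.29e-06), and 47.4 to 50.6 CPM in ISL1 KO and 66.6 to 81.7 CPM in PDX1 KO. IFIT3, a blocker of viral translation that interferon induces, fell from 28.4 and 27.9 CPM to 7.88, 12 and 8.32 CPM (−1.58 ± 0.22). In all, 18 of 37 were lower than in ISL1 KO and 14 lower than in PDX1 KO. All groups carried the same kind of control vector, but how much each took up was not tested. Without WT replicate 1 the interferon list had 8 lower, and with all 21 libraries 4.

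Targets of p53 had 1 of 24 higher and 13 lower. CDKN1A, the cell cycle inhibitor p21, had 201 and 234 CPM in WT and 73.9, 76.8 and 90.6 CPM in PAX6 KO (−1.43 ± 0.12), MDM2 fell by 0.84 ± 0.16, and GDF15, a stress cytokine, went from 237 and 336 CPM to 91.2, 95.2 and 107 CPM (−1.55 ± 0.19). Without WT replicate 3 the p53 list had 6 lower, and with all 21 libraries 4. Genes of the integrated stress response had 1 of 21 higher and 10 lower. DDIT3, the factor CHOP, fell by 1.05 ± 0.18, CTH, which makes cysteine, by 1.89 ± 0.19, while SLC7A5, an amino acid importer, rose by 1.18 ± 0.14 and was above both other knockouts.

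Few growth genes were called against WT. Cell cycle and DNA replication genes had 1 of 33 and 1 of 36 higher and none lower, and ribosomal protein genes had 0 of 74 called by edgeR, where 27.7% of all genes were. At an unadjusted p under 0.05 edgeR had 1 of the 74 lower, DESeq2 called 1 lower, and with library size as scaling 3 were called higher. MKI67, the proliferation marker, had 33.2 and 19.9 CPM in WT and 29.9, 49.4 and 16.1 CPM in PAX6 KO, groups that overlapped (0.26 ± 0.40, adjusted p = 0.675). Against PDX1 KO, 27 cell cycle genes and 27 DNA replication genes were higher in PAX6 KO, where 9.02% of all genes were. Without PAX6 KO replicate 2, which had the highest MKI67, the WT comparison had 3 cell cycle and 2 DNA replication genes lower and none higher.

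Of 26 genes linked to PAX6 in islet cells by earlier work, 5 were higher and 10 lower. The lower ones included GCG, G6PC2, FFAR1, SLC30A8, SCG5 and GPR119, and the higher ones GHRL, NKX2-2, PAX4 and PCSK1, all described above. The letters TTCACGC, part of the sequence that the PAX6 paired domain is known to bind, stood in none of the 19 promoters of this list that the table holds, in 1.09% of all promoters, in 1.52% of those of genes called lower and in 0.907% of those called higher. No match says only that these letters are not in these 250 bases.

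Genes close to PAX6 on chromosome 11 were looked at because an edit can touch its neighbours. Distances were taken between gene midpoints. Of the 17 genes tested within 2 Mb after PAX6 in coordinate order, 5 were lower and none higher (median −0.20). Their medians were −0.28 in ISL1 KO and −0.14 in PDX1 KO. Of the 9 within 2 Mb before it, 1 was lower and none higher (median 0.01). From 2 to 4 Mb after PAX6, 2 of 14 were higher and 3 lower, and from 4 to 6 Mb 0 of 6 and 1. Before it, 0 of 2 were higher and 1 lower from 2 to 4 Mb, and 2 of 11 and 1 from 4 to 6 Mb. Of all genes tested 27.7% were called. The 15 called genes within 5 Mb moved in both directions, with CCDC34, CAPRIN1 and ABTB2 among the higher. CCDC34 was not called without either WT library (0.54 and 0.68). CAPRIN1 was not called without WT replicate 3 (0.29) or PAX6 KO replicate 1 or 3 (0.49 and 0.46). ABTB2 lost its call without any 1 of WT replicates 1 and 3 and PAX6 KO replicates 1 and 3 (0.72 to 0.87). EIF3M, PRRG4, TCP11L1, CD59 and PRR5L, which were lower, lost theirs without WT replicate 3 (−0.22 to −2.39). The lower ones included CAT and LMO2, CD44, a matrix receptor (−1.89 ± 0.22), BDNF, a neurotrophin (−1.01 ± 0.19), and METTL15 (−0.70 ± 0.13). ELP4, the neighbour whose introns hold enhancers of PAX6, was also lower (56.3 and 66.3 CPM against 42.5, 34.7 and 50.5 CPM, −0.52 ± 0.17). ELP4 was not called without any 1 of WT replicates 1 and 3 and PAX6 KO replicates 1 and 2 (−0.39 to −0.64, adjusted p 0.0635 to 0.258). Of CAT, LMO2, CD44, BDNF, METTL15 and ELP4, CAT was lower than in both other knockouts, and ELP4 was higher than in ISL1 KO by 0.69.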

How the data were processed

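The authors deposited a table of estimated counts of reads per gene, per the file headers, with 1 column per sequencing lane. Reads were aligned with STAR to GRCh38, per the submitters' processing notes, and the sources used here do not name the counting program. The cDNA kit named in the labels' protocols marks neither strand nor molecules, so reads of overlapping genes cannot be separated. The 4 lanes of each library were summed and rounded to whole counts. Lanes of 1 library correlated at 0.99 or more, and 12 columns of 3 libraries were not used. Gene symbols came from a list of current names, or from GENCODE 29 where that list gave none.

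Counts of the 11 control-vector libraries (4 groups) were filtered with edgeR's filterByExpr, scaled by TMM and fitted with its quasi-likelihood test (edgeR 4.0.16, R 4.3.3) without covariates. DESeq2 1.42.0 served as an alternative, and the other alternatives used edgeR. All 4 groups entered the fit because WT has 2 libraries. On simulated data of this comparison the fit called 94 of 100 genes changed by 2 and 55 of 100 changed by 1 on the log2 scale. It also called 5 of 20641 unchanged genes. Those counts were drawn from the fitted model itself, with few genes changed and none of those at low counts. The shares therefore describe that setting and not the error rate in the real data.

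Named genes were PAX6, the 12 largest rises and falls (mean log2 CPM of at least 2, called also with all 21 libraries, groups not overlapping), the same among transcription factors (at least 1), up to 5 called members with the smallest adjusted p in each of 92 lists, and called genes within 5 Mb of PAX6. B2M, BCL11A, CANX, CHGA, FICD, GSR, HSP90B1, MECOM, MKI67, SERP1, TAPBP, TPH1 and the genes named only for a promoter element were chosen after their values were seen. The comparison, lists, rule and motifs were chosen with earlier results of these data known. Above or below both other knockouts means called against WT and against each of them in 1 direction.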

Additional observations from a re-analysis of the deposited data

How the results depend on the processing

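Under 17 alternatives, 231 of 394 named genes kept their direction and call, and none of the 394 reversed. All but PAX6 were named because the main fit called them, and the alternatives reuse its libraries. Few reversals could then occur, so their absence is not a separate check. Against WT the main counts of 2840 higher and 3037 lower became 534 and 942 with all 21 libraries, where the common dispersion was 0.114 in place of 0.0377, and 4986 and 1867 with library size as scaling. Against ISL1 KO the fit of all 21 libraries gave 398 higher and 219 lower (1100 and 810 in the main fit) and DESeq2 gave 1223 lower. Against PDX1 KO all 21 libraries gave 376 and 425 (1915 and 1860). With 1 library left out, the counts ran from 1461 to 2854 higher and 1778 to 2853 lower against WT, 655 to 1350 and 517 to 1262 against ISL1 KO, and 1010 to 1759 and 1146 to 1709 against PDX1 KO. The lone WT library left is then assumed to vary like the other groups. The call was lost by 152 named genes with all 21 libraries, 58 without WT replicate 3, 48 without WT replicate 1 and 24 with library size as scaling. MKI67, chosen after its values were seen and not called, turned to −0.2 without PAX6 KO replicate 2 and −0.04 without WT replicate 3, and was 0.67 without WT replicate 1. Whether the replicate numbers pair the samples could not be decided. Deviations from the group means correlated at −0.201 and 0.173 for the 2 same-numbered pairs. With 2 WT libraries these deviations mirror each other, so each correlation has its opposite with the other WT library. With a replicate block 2786 genes were higher and 2894 lower against WT. The block gave 1075 and 848 against ISL1 KO, and 1862 and 1781 against PDX1 KO. The GC and length corrections and the lane set block were chosen after seeing the data.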

Other observations

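Matrix genes moved in both directions in PAX6 KO. Proteoglycans and matrix modifiers had 17 of 53 genes higher and 12 lower, with VCAN, a large proteoglycan of loose matrix, at 45.3 and 41.0 CPM in WT and 138, 123.9 and 115.5 CPM in PAX6 KO (1.54 ± 0.16), and FMOD, a collagen-binding proteoglycan, lower (−2.35 ± 0.29). Collagens had 9 of 40 higher and 3 lower. Epithelial junction and keratin genes had 4 of 46 higher and 18 lower, and the tight junction genes CLDN4 (612 and 650 CPM against 162, 217 and 173 CPM, −1.77 ± 0.15) and CLDN7 (−1.59 ± 0.17) were among the lower. Without WT replicate 1 that list had 3 higher and 9 lower, and with library size as scaling 6 and 8.

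Imprinted genes, which are read from the copy of 1 parent, had 8 of 31 higher and 8 lower. NNAT, a small membrane protein of endocrine and neural cells, rose by 2.02 ± 0.26 and PEG10 by 1.08 ± 0.18, while PLAGL1, a zinc finger growth inhibitor, fell by 1.51 ± 0.21. Metallothioneins and zinc transporters had 1 of 29 higher, MT1F (2.13 ± 0.26), and 11 lower, SLC39A8, a zinc importer, among them (−1.69 ± 0.19).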
